A study of Mus musculus with 23 samples.

Results

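Transcripts were measured by RNA-seq in single mouse mesenchymal stem cells (mMSCs), and 2 of the clusters that the study drew among these cells are set against each other here. The blue cluster holds 3 cells (mMSC5, mMSC6 and mMSC16) and the green cluster, named for proliferation, holds 5 cells (mMSC1, mMSC4, mMSC8, mMSC11 and mMSC14). Together they are 8 of 23 libraries, the rest being 8 other mMSCs, 5 single HL-1 cardiomyocytes (HL1cm), and a bulk library of each cell type (mMSC-PC and HL1cm-PC). The study grouped mMSC-PC with the green cells. It summed up both clusters as mainly proliferating, and proposed that the blue cells were readying their DNA for a later division. All mMSCs came from the bone marrow of male C57BL/6J mice aged 3 months, carried no stated genetic change or treatment, and were used between passages 6 and 11. They had been purchased and expanded on gelatin, were lifted with trypsin and were captured on a microfluidic chip for cells of 17 to 25 micrometres. The blue and green cells differ by no label, agent or genotype, and only the clustering of their own expression values tells them apart.

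The members were selected on the expression values of these same cells, so every gene took part in the choice, and a difference between the clusters is a description with no test. No separate cultures are named for the cells, so each cluster is also a set of cells from 1 sample, and the SD between cells is not an error between cultures. Expression is given as FPKM, the number of sequenced fragments scaled to transcript length and to library size, and differences as blue minus green in mean log2 FPKM after values under 1 FPKM were set to 1. Of 22525 genes left once symbols starting with Mir or Snor were removed, 10844 reached 1 FPKM in at least 2 of the 16 mMSCs and are called measured. A gene was called where the means differed by at least 2 on the log2 scale, or 4-fold, and no cell of the lower cluster reached any cell of the higher one. By this rule 74 genes (0.682% of those measured) were higher in blue and 108 genes (0.996%) were higher in green. Both directions together made 182 genes (1.68%). With no limit on size, 143 genes (1.32%) had every blue cell above every green cell and 181 (1.67%) the reverse. The median difference of all genes was -0.04.

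A dividing cell first licenses its replication origins with the Mcm helicase, then copies its DNA with polymerases, clamps and a supply of deoxynucleotides, and then segregates the copies on the spindle. The genes of these steps are switched on in waves, with E2F factors acting on replication genes before division and the B-Myb and Foxm1 factors acting later on mitosis genes. Mesenchymal stem cells are stromal cells of the marrow that grow on plastic, lay down collagen matrix and secrete chemokines, and a culture of them is a mixture of cycling and resting cells.

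All 8 cells carried 8 of 9 mesenchymal markers. Sparc, Cd44, Vim, Col1a1, Col1a2, Fn1, Ly6a and Pdgfrb were above 0 in every one of the 8 cells. The ninth, Col3a1, was above 0 in all 3 blue cells and in 3 of the 5 green cells. The summed level of the 9 markers ran from 4873 to 6854 FPKM in blue and from 2902 to 5515 FPKM in green cells. In HL1cm it was 760 to 1598 FPKM, with Vim and Sparc above 0 in each. Markers of cardiomyocytes summed to 0 to 36.7 FPKM in blue and 2.68 to 62.7 FPKM in green cells, against 32948 to 60053 FPKM in HL1cm. Nppa, Nppb, Tnni3 and Nkx2-5 were listed at 0 in all 8 cells, but Nppb was at 0 in every HL1cm too. The other 7 of 11 cardiomyocyte markers were above 0 in some of the 8 cells, and none of them in all 8. Of 11 macrophage and leukocyte markers, 6 were at 0 in all 8 cells, Ptprc and Lyz2 among them, and the sums were 30.0 to 82.3 FPKM in blue and 45.2 to 91.4 FPKM in green cells. Cd14 was the one of these markers above 0 in all 8 cells. Cd68 (48.1 FPKM) and Itgam (0.727 FPKM) were each above 0 in 1 green cell and no blue cell. Csf1r was above 0 in 1 blue cell (22.5 FPKM) and 1 green cell (2.32 FPKM), and in 6 of the 8 other mMSCs. Cd74 was above 0 in 1 blue cell (4.47 FPKM) and 1 green cell (10.9 FPKM). All 8 endothelial markers were at 0 in all 8 cells.

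The 8 libraries were similar in gene number and unlike in depth. A blue cell had 6651 to 7234 genes that reached 1 FPKM and a green cell had 6814 to 7169. Read counts were not used, and depth was judged from the low edge of each library, the 5th percentile of FPKM times transcript length in kilobases over 5552 genes with a single annotated transcript, which lies near the worth of the fewest read pairs that give a value. It was 2.80 to 5.25 in blue and 3.18 to 7.21 in green cells, highest and so shallowest in mMSC1 (7.21) and mMSC8 (6.82). Symbols starting with Mir or Snor took 25.4% to 68.1% of the summed FPKM in blue and 7.53% to 75% in green cells. The summed FPKM of the remaining genes was 610726 to 680396 in the 8 libraries. A value of 0 says that a gene was listed at 0, which at this depth is not the absence of its transcripts.

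With values under 1 FPKM set to 1, the mitosis genes told the clusters apart more widely than the replication genes did. Over 75 mitosis genes, the mean log2 FPKM was 2.60 ± 0.64 (SD, n = 3 cells) in blue and 4.70 ± 0.37 (SD, n = 5 cells) in green cells, and every green cell lay above every blue cell. Over 48 DNA replication genes it was 3.51 ± 1.06 in blue and 4.83 ± 0.50 in green cells, and the clusters overlapped. The other 8 mMSCs stood below both clusters on both lists, at 0.72 to 1.18 for mitosis and 1.31 to 2.35 for replication.

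The 3 blue cells were unlike each other in these genes. In mMSC6 the replication mean was 4.64, inside the green range of 4.28 to 5.30, while its mitosis mean was 2.54, under the green range of 4.27 to 5.19. In mMSC5 the order was turned, with a replication mean of 2.55 and a mitosis mean of 3.27, the highest of the blue cells. In mMSC16 the replication mean was 3.34 and the mitosis mean 2.00, the lowest of the blue cells. The bulk mMSC-PC lay at 4.32 and 3.43. No blue cell shared the position of another, and the plot of both means shows them strung between the other mMSCs and the green cells.

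**Figure D1:**
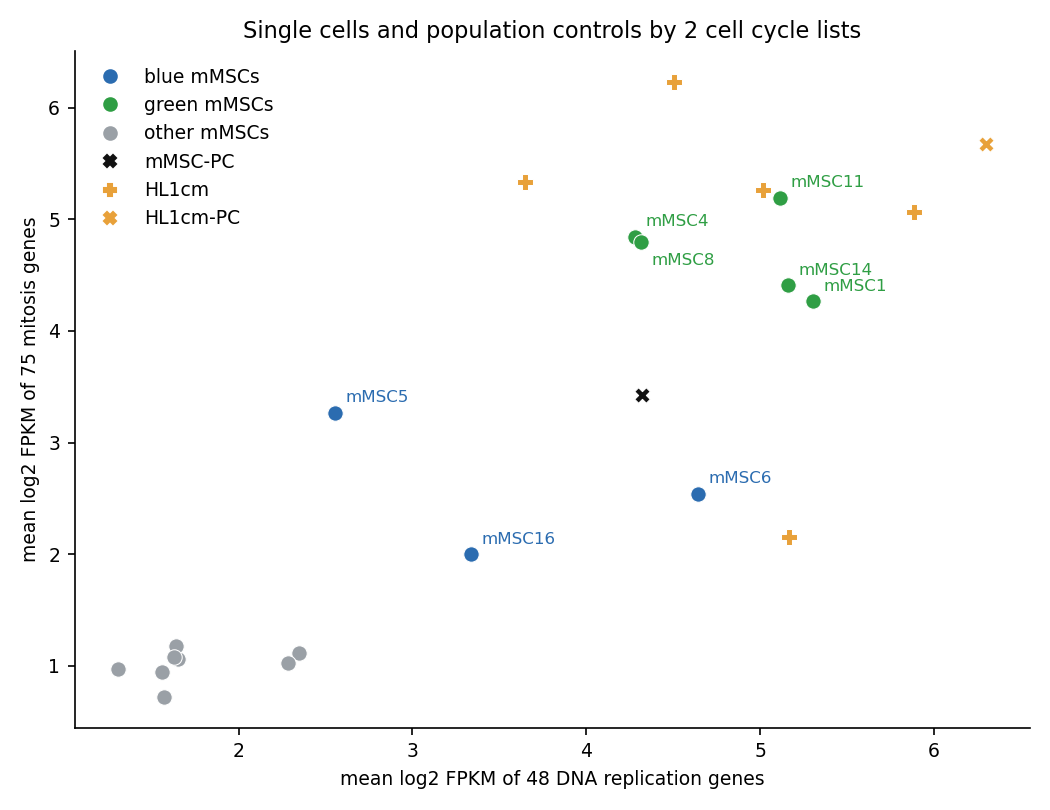
Mean log2 FPKM (values under 1 FPKM set to 1) over 48 DNA replication genes (x axis) and 75 mitosis genes (y axis), with 1 point per library, coloured by cluster or cell type. The green mMSCs lie at 4.27 or above on the y axis and the blue mMSCs at 3.27 or below, while mMSC6 lies within the green range on the x axis.

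Gene by gene, mMSC6 was below the lowest green cell for 9 of 48 replication genes and for 47 of 75 mitosis genes. For mMSC5 these counts were 28 of 48 and 36 of 75, and for mMSC16 they were 18 of 48 and 49 of 75. Over all 10844 genes a blue cell was below the lowest green cell for 8.02% (mMSC5), 8.57% (mMSC6) and 9.44% (mMSC16) of genes. A gene at 0 in a green cell cannot have a blue cell below it, which holds this share down. A green cell had 32.7% to 37.1% of all genes at 0, against 4% to 9.33% of mitosis genes and 4.17% to 14.6% of replication genes. Mitosis genes listed at 0 numbered 14 in mMSC5, 23 in mMSC6 and 34 in mMSC16, against 3 to 7 in a green cell.

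Among the mitosis genes, 24 of 75 were called higher in green and 0 in blue, where 0.996% of all genes were called higher in green. The mean was higher in green for 71 of 75, where 51.6% of all genes had the higher mean in green, and the median difference was -2.19. The exceptions with a higher mean in blue were Pttg1 (0.36), Cenph (2.72), Cenpn (1.46) and Dsn1 (1.51), named here after their values were seen. These counts describe genes that also served to draw the clusters. A gene at 0 in a green cell cannot be called higher in green, and a smaller share of mitosis genes than of all genes was at 0 there. With values under 10 FPKM set to 10, which takes low values out of play, the median difference was -0.93 for the mitosis genes. It was -0.79 for the replication genes, so that the lists were then close. At that setting 6 genes of all those measured were called higher in blue and 25 in green. With mMSC1 and mMSC8, the shallowest green libraries, left out, 181 and 253 genes were called and the median of the mitosis genes was -2.45.

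Of 20 genes of the mitotic kinases and the anaphase promoting complex, 5 were called higher in green, and the list had a median difference of -2.07. Aurkb, the kinase of the chromosomal passenger complex at the centromere, was listed at 0 in all 3 blue cells and at 19.8, 14.9, 14.1, 97.9 and 20.0 FPKM in mMSC1, mMSC4, mMSC8, mMSC11 and mMSC14. It was also at 0 in all 8 other mMSCs, and mMSC11 stood above the rest of the green cells. Its partner Incenp, which anchors the complex, was at 0 in mMSC5 and mMSC6 and at 15.3 FPKM in mMSC16, against 76.4, 16.2, 36.1, 71 and 13.9 FPKM in the green cells, so that mMSC16 overlapped with them.

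Aurka, the kinase of the centrosomes and spindle poles, was at 19.6, 0 and 3.73 FPKM in mMSC5, mMSC6 and mMSC16 and at 40.1, 31.2, 64.6, 66.8 and 52.1 FPKM in the green cells. The lowest green cell was above the highest blue cell, and all 8 other mMSCs were at 0. Pbk, a kinase active in mitosis, was at 40.6 FPKM in mMSC5, at 0 in mMSC6 and mMSC16, and at 120.1, 104, 232, 151 and 175 FPKM in the green cells. This was the second largest difference among the mitosis and replication genes, with means of 1.78 ± 3.08 (SD, n = 3) and 7.23 ± 0.45 (SD, n = 5) on the log2 scale. Ube2c, which feeds ubiquitin to the anaphase promoting complex, was at 97.5, 0 and 27.6 FPKM in the blue cells and 136, 100.3, 407, 264 and 89.9 FPKM in the green cells. It was not called because mMSC5 was above mMSC14, whereas mMSC6 was at 0.

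The kinetochore, the protein plate by which a chromosome holds on to the spindle, was lower in blue by its median too. Of its 20 genes 5 were called higher in green, 17 had the higher mean in green, and the median difference was -1.34, or -2.40 without mMSC5. Spc25, a subunit of the Ndc80 complex that binds microtubules, was at 19.6, 7.63 and 3.81 FPKM in mMSC5, mMSC6 and mMSC16 and at 68.5, 168, 196, 334 and 169 FPKM in the green cells. The gap between mMSC5 and the lowest green cell, mMSC1, was more than 3-fold. Nuf2, of the same complex, gave another picture, with 72.4, 2.08 and 0 FPKM in the blue cells and 47.8, 139, 83.4, 146 and 96.7 FPKM in the green cells. Here mMSC5 lay among the green cells, and mMSC6 and mMSC16 did not.

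Sgol1, the shugoshin that guards cohesion at the centromere, was at 0.653, 0.459 and 6.98 FPKM in blue and 30.4, 67.2, 8.89, 66.6 and 26.8 FPKM in green cells. The clusters met closely, since mMSC16 was just under mMSC8. Cenpm, of the constitutive centromere network, was at 15.2, 5.79 and 0 FPKM in blue and 34.1, 70.5, 55.9, 45.8 and 43.1 FPKM in green cells, with no overlap and with 0 in all 8 other mMSCs. Cenpk, of the same network, was at 2.41, 47.4 and 0 FPKM in blue and 45.8, 66.2, 61.6, 57 and 57.5 FPKM in green cells, where mMSC6 reached the lowest green cell.

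Spindle motors and cytokinesis genes formed the list with the lowest median, -2.84. All 23 measured members had the higher mean in green, and 10 of them were called. Prc1, which bundles the antiparallel microtubules of the central spindle, was at 0 in mMSC5 and mMSC16 and at 26.4 FPKM in mMSC6, against 51.9, 126, 89.5, 51.7 and 55.1 FPKM in the green cells. Kif4, the motor that works with Prc1, was at 4.46, 1.47 and 0 FPKM in blue and 33.7, 27.8, 27.7, 23.7 and 18.2 FPKM in green cells. Both genes separated the clusters, Kif4 with means of 0.90 ± 1.12 (SD, n = 3) and 4.68 ± 0.33 (SD, n = 5) on the log2 scale.

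Nusap1, which stabilises spindle microtubules near chromosomes, was at 0 in all 3 blue cells and all 8 other mMSCs, and at 5.31, 48, 7.14, 45.9 and 9.19 FPKM in the green cells. Within the green cluster mMSC4 and mMSC11 were high and the rest were low. Racgap1, a regulator of the contractile ring, was at 18.9, 1.26 and 0 FPKM in blue and 19.3, 36.5, 36.2, 40.0 and 35.1 FPKM in green cells. For this gene mMSC5 and mMSC1 were almost level. Stmn1, which takes microtubules apart, was at 314, 38.4 and 0 FPKM in blue and 174, 510.1, 545, 293 and 229 FPKM in green cells, so that mMSC5 was again within the green range and mMSC16 was at 0.

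Chromosome condensation and cohesion gave 4 calls among 12 genes and a median of -2.04. Mki67, the Ki-67 protein that coats mitotic chromosomes and is used as a marker of proliferation, was at 1.79, 0.825 and 0 FPKM in blue and 10.6, 29.5, 29, 19.9 and 17.7 FPKM in green cells. None of the 8 other mMSCs exceeded 1.21 FPKM, so that the 5 green cells alone carried this transcript at 10 FPKM or more. Top2a, the topoisomerase that untangles sister chromatids, was at 20.5, 153 and 5.2 FPKM in blue and 44, 189, 126, 204 and 133 FPKM in green cells. It did not separate the clusters, because mMSC6 was above 3 of the 5 green cells. Smc3, a cohesin subunit, was at 17.5, 1.79 and 9.83 FPKM in blue and 46.3, 56.1, 18, 26.7 and 26.9 FPKM in green cells, and mMSC5 came within a small step of mMSC8.

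**Figure D2:**
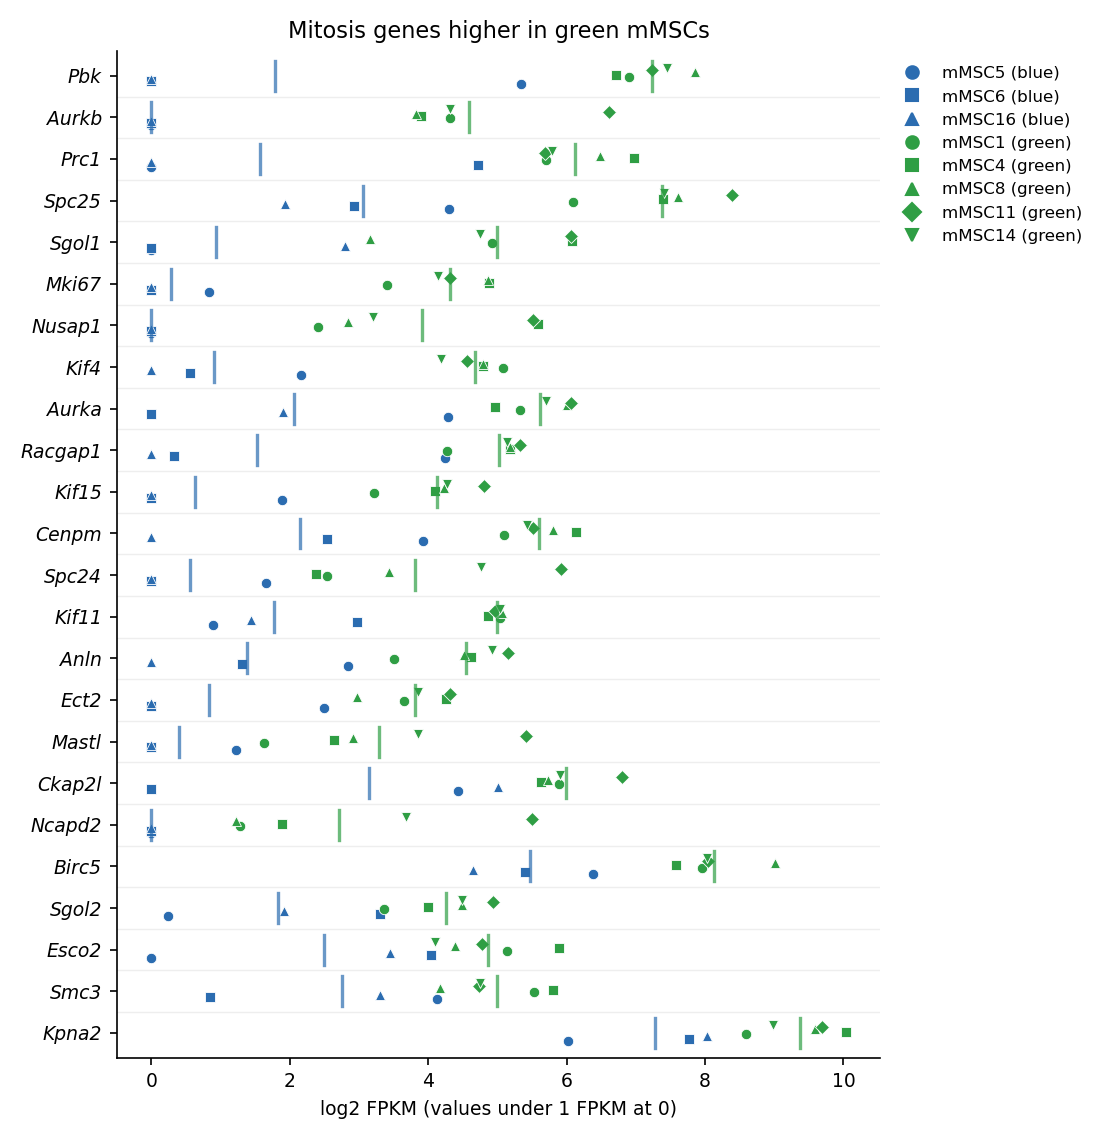
Log2 FPKM (x axis, values under 1 FPKM at 0) of the 24 mitosis genes called higher in green, 1 point per cell, with blue and green vertical bars at the cluster means. Blue cells lie to the left of every green cell by the rule of choice, and mMSC5 is the nearest blue cell to the green ones for genes such as Pbk, Racgap1 and Aurka.

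Ncapd2, a condensin subunit, and Esco2, which sets cohesion in S phase, were called as well, with differences of -2.71 and -2.36. The remaining genes in the plot of 24 mitosis genes lie outside the rule for named genes and are listed because they complete the count. They are Mastl and Birc5 among the kinases and their partners, Spc24 and Sgol2 at the kinetochore, and Kif11, Kif15, Ect2, Anln, Ckap2l and Kpna2 in the spindle and cytokinesis. Their differences ran from -3.49 for Kif15 to -2.11 for Kpna2.

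The cyclins and their kinases followed at a smaller size, with a median of -1.02 and 2 calls among 18 genes. Cdk1, the kinase that drives entry into mitosis, was at 9.08, 53.2 and 22.1 FPKM in blue and 143, 136, 132, 182 and 74.5 FPKM in green cells. Cks2, its small binding subunit, was at 41.6, 26.1 and 76 FPKM in blue and 372, 131, 345, 288 and 219 FPKM in green cells. Both separated the clusters. Against the median of the other mMSCs all 3 blue cells were higher for Cdk1 (3.35 FPKM) and lower for Cks2 (78.5 FPKM). Ccnb1, the mitotic cyclin B1, was at 15.6, 24.1 and 1.39 FPKM in blue and 15.4, 103, 89.2, 49.6 and 71.7 FPKM in green cells and at 0 in all 8 other mMSCs. The low value of mMSC1 placed it among the blue cells. Ccnb2, the second B cyclin, ran against the clusters in mMSC5, with 92.4, 0 and 0 FPKM in blue and 0, 44, 22.5, 75.4 and 19 FPKM in green cells, so that the highest of the 8 values was in a blue cell and mMSC1 was at 0.

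Ccna2, the cyclin of S phase and of the entry into mitosis, was at 11.1, 10.9 and 2.99 FPKM in blue and 22.6, 16.4, 15.2, 29.7 and 62.8 FPKM in green cells. Its clusters did not overlap, but its difference of -1.83 was under the limit for a call. Ccnd1, the cyclin that answers growth signals before replication, was at 82.9, 113 and 64.5 FPKM in blue and 67.3, 61.3, 20.8, 40.5 and 83 FPKM in green cells and overlapped. Ccnf, which helps in the destruction of replication and centrosome proteins, was at 0 in all 3 blue cells, but also at 0 in mMSC4.

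Replication genes were lower in blue by their median, -1.42, with 2 of 48 called higher in green and 0 in blue. Without mMSC5 that median was -0.79. Origin licensing and helicase genes had a median of -1.39 over 14 measured genes, of which 0 were called, and of -0.52 without mMSC5. Mcm10, an initiation factor, was at 0, 30.8 and 2.18 FPKM in blue and 30.2, 14.4, 15.7, 26.7 and 13.8 FPKM in green cells. Mcm7, a ring subunit of the helicase, was at 2.97, 42.9 and 18.6 FPKM in blue and 167, 29.9, 13.7, 96 and 62.5 FPKM in green cells. Mcm2, another ring subunit, was at 2.49, 59.2 and 2.49 FPKM in blue and 23.5, 13.7, 22.4, 21.9 and 55.5 FPKM in green cells. For each of them mMSC6 lay within the green range or above it, and mMSC5 lay under it. Mcm6 was closer, at 32.4, 46.5 and 19.5 FPKM in blue and 54.6, 49.3, 30.2, 81.7 and 114 FPKM in green cells.

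The replication fork and histone supply list had a median of -1.42 over 26 genes and 1 call. That gene was Rpa1, of the complex that covers single-stranded DNA, at 1.84, 3.72 and 0 FPKM in blue and 19.4, 6.06, 39.4, 59.8 and 26.3 FPKM in green cells. Its partner Rpa2 was at 0, 26.8 and 0 FPKM in blue and 65.6, 5.43, 44.8, 80.6 and 18.9 FPKM in green cells. Fen1, which trims the lagging strand, was at 0, 38.9 and 0 FPKM in blue and 19.3, 3.21, 90.9, 46.5 and 18.4 FPKM in green cells. For both, mMSC6 reached into the green range and mMSC5 and mMSC16 were at 0. Asf1b, a histone chaperone, was at 3.16, 21.1 and 0 FPKM in blue and 33.4, 10.2, 100.1, 82.3 and 78 FPKM in green cells. Pcna, the sliding clamp of the polymerases, had a difference of -0.46, at 139.5, 355 and 186 FPKM in blue and 436, 209, 146, 269 and 562 FPKM in green cells, and both clusters were mostly above the other mMSCs (27.2 to 161 FPKM).

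All 8 genes of deoxynucleotide and thymidylate synthesis had the higher mean in green, and the median was -1.34, or -0.83 without mMSC5. Tk1, the thymidine kinase made in S phase, was at 0, 13.1 and 0 FPKM in mMSC5, mMSC6 and mMSC16 and at 238, 125, 123, 196 and 196 FPKM in the green cells. This was the largest difference of any replication or mitosis gene, -6.17, with means of 1.24 ± 2.14 (SD, n = 3) and 7.41 ± 0.43 (SD, n = 5). Tk2, the thymidine kinase of mitochondria, went the other way, at 9.98, 8.25 and 21.9 FPKM in blue cells and 0 in all 5 green cells. Of the 8 other mMSCs, 4 were above 0 for it.

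Rrm2, the regulated subunit of ribonucleotide reductase, was at 322, 569 and 449 FPKM in blue and 1058, 779, 703, 921 and 697 FPKM in green cells. The clusters were apart by a difference of -0.92, and both exceeded the median of the other mMSCs, 125 FPKM. Rrm1, its partner, was at 16, 93.7 and 8.8 FPKM in blue and 78.2, 84, 27.5, 36.7 and 62.8 FPKM in green cells, with mMSC6 above every green cell. Dtymk, which makes thymidine diphosphate, was at 157, 0 and 91.2 FPKM in blue and 206, 83.4, 92.2, 141 and 124 FPKM in green cells, with mMSC6 the lowest of the 8.

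Chromatin genes of dividing cells were lower in blue in all 12 of 12 means, with a median of -1.40 and 2 calls. Dnmt1, the methyltransferase that copies DNA methylation at the fork, was at 2.95, 9.38 and 1.5 FPKM in blue and 20.9, 11.6, 30.8, 42 and 38.2 FPKM in green cells. Hmgb2, a chromatin protein of dividing cells, was at 0, 8.67 and 19.7 FPKM in blue and 33.4, 70.3, 49.7, 71.3 and 33.9 FPKM in green cells. The highest blue cell was mMSC6 for the first and mMSC16 for the second. Uhrf1, which recruits Dnmt1, had a difference of -0.24, at 51.9, 137 and 124 FPKM in blue and 226, 95.3, 47.9, 93.2 and 197 FPKM in green cells. All 8 cells were above the highest other mMSC for Uhrf1 (23.7 FPKM). Ezh2, the methyltransferase of Polycomb, was at 67.9 FPKM in mMSC6 and at 0 in mMSC5 and mMSC16, against 33.4, 68.7, 50.7, 74.6 and 54.4 FPKM in the green cells, so mMSC6 was level with them. Cbx5, the heterochromatin protein HP1 alpha, was at 21, 16.3 and 15.4 FPKM in blue and 80.3, 55.4, 25.9, 79.8 and 84.9 FPKM in green cells, which were apart by a difference of -1.79.

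Inhibitors of the cycle did not mirror these lists. CDK inhibitors and p53 targets had a median of -0.31 over 16 genes, with 1 called higher in blue and 0 in green. That gene, Btg2, an antiproliferative gene induced by p53, was at 4.18, 11.9 and 29.8 FPKM in blue and 0, 0, 0, 0 and 2.99 FPKM in green cells. Cdkn1a, the inhibitor p21, was at 40.7, 88.2 and 39.8 FPKM in blue and 79.6, 59, 53, 71.9 and 153 FPKM in green cells and overlapped. Trp53 itself was lower in every blue cell, at 109, 45.9 and 94.1 FPKM against 184, 292, 195, 265 and 205 FPKM, a difference of -1.53 that is under the limit for a call.

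Of 15 measured E2F, Rb and Dream genes, the regulators named above, 0 were called and the median was -0.75, which ran from -1.16 without mMSC6 to -0.36 without mMSC16. Mybl2, which encodes B-Myb, was at 0, 1.04 and 6.55 FPKM in blue and 17.9, 2.57, 7.38, 14.4 and 15.5 FPKM in green cells. Foxm1 was at 3.1, 3.03 and 0 FPKM in blue and 14.4, 3.73, 4.6, 9.55 and 0 FPKM in green cells. Both genes overlapped between the clusters. Rb1, the retinoblastoma protein that holds E2F back, was at 39.7 FPKM in mMSC6 and at no more than 5.92 FPKM in any of the other 15 mMSCs. It was listed at 0 in mMSC5 and in 3 of the 5 green cells.

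Promoters are shown because 71 of 75 mitosis genes had the higher mean in green and genes of this kind are known to share promoter motifs. Promoter windows of 300 bases, from 250 before to 50 after the start, came from RefSeq on GRCm38.p6, the same build as the mm10 of the alignments. They were searched on both strands for the CHR element (TTTGAA or TTCGAA), which the Dream complex and B-Myb use, for CCAAT, the box of NF-Y, for E2F sites (TTTCCCGC, TTTGGCGC, TTTCGCGC or TTTGCCGC), for the CArG box of SRF, and for the TEAD motif GGAATG. A CArG box can hold CCAAT within it, and no other motif here is contained in another. Capitals mark matches to the first 3 and to the CArG box on either strand, so that CCAAT on the opposite strand reads as ATTGG. The first 4 below were called higher in green and hold both CHR and CCAAT, Tk1 was called higher in green and holds none of the marked motifs, and Mt2 and Igfbp7 were called higher in blue and hold none either. They are examples and do not stand for their groups. Among genes called higher in blue, Itih2 and Tk2 hold CHR, and Twist2 and Rgs4 hold CCAAT. Pus1 and Slc18a2, called higher in green, hold none of the marked motifs.
Mki67: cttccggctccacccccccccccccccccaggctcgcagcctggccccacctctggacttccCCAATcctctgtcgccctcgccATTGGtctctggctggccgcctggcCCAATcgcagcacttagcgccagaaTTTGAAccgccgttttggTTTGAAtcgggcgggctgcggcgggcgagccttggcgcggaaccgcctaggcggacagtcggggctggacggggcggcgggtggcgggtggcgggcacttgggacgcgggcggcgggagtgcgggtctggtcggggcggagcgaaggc
Cdk1: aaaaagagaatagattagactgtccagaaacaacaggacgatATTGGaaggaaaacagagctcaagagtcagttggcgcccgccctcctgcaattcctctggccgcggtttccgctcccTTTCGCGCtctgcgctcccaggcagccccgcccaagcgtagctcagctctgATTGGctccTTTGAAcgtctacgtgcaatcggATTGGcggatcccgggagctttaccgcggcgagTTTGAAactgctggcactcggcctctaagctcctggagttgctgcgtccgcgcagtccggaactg
Prc1: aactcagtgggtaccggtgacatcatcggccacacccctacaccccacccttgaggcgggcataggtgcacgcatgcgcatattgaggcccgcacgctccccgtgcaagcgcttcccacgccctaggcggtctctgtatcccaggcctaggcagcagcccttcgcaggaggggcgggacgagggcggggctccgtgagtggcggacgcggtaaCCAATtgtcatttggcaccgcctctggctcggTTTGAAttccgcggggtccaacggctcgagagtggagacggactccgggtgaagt
Spc25: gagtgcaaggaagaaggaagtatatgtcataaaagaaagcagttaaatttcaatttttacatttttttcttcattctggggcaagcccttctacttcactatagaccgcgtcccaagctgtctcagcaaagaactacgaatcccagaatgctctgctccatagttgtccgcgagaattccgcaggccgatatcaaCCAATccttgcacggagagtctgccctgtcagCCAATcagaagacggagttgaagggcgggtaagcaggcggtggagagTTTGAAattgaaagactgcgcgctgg
Tk1: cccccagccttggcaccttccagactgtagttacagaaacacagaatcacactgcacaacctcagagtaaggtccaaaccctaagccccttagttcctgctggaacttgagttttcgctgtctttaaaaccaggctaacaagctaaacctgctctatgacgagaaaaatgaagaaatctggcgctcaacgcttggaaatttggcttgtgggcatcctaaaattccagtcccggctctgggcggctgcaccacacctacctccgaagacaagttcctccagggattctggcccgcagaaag
Mt2: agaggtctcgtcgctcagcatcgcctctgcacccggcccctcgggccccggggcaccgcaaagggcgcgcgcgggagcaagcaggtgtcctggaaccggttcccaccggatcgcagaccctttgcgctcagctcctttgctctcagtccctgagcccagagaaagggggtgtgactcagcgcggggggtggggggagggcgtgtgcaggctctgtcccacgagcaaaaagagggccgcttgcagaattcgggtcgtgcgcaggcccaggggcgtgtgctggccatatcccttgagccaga
Igfbp7: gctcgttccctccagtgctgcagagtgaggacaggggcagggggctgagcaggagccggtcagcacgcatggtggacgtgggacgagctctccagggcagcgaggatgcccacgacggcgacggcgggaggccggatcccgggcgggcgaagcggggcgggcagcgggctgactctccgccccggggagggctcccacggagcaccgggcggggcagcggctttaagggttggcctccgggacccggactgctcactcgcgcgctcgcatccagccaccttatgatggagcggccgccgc

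The windows are chr7:135716330-135716629 (minus strand) for Mki67, chr10:69352863-69353162 (minus strand) for Cdk1, chr7:80294201-80294500 (plus strand) for the upstream of the starts of Prc1, and chr2:69206164-69206463 (minus strand) for Spc25. Those of the others are chr11:117825965-117826264 (minus strand) for Tk1, chr8:94172368-94172667 (plus strand) for Mt2 and chr5:77407996-77408295 (minus strand) for Igfbp7. Each window spans the annotated start of transcription and the first bases of exon 1. Mki67 and Cdk1 have 2 CHR matches each, and Prc1 and Spc25 have 1 each. Cdk1 is the only one of the 7 with an E2F match.

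A CHR match was present in 46 of 70 promoters of mitosis genes (65.7%), in 36 of 111 promoters of genes called higher in green (32.4%) and in 12 of 72 of those called higher in blue (16.7%). Among promoters of all genes measured here the share was 14.1%, and among all RefSeq windows given here it was 19.2%. Matches to CHR and CCAAT together were in 54.3% of mitosis promoters, 18.9% of green ones, 5.56% of blue ones and 5.83% of those measured. The 108 genes called higher in green include 24 mitosis genes, so the mitosis and green shares are not separate results. The share among green genes without them was not computed. Promoters of replication genes differed in kind, with CHR in 14.3% and an E2F match in 31%, against 8.57% of mitosis promoters and 4.08% of those measured. The CArG box was in 2 of 111 green and 0 of 72 blue promoters, and TEAD in 15.3% and 11.1%, beside 12.2% of those measured. A match is a run of letters and not a bound site. Promoters were found for 88 of the 108 genes called higher in green, 58 of the 74 called higher in blue, and 63 of the 76 listed mitosis genes, and a gene with several starts has several windows.

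Further genes among the 15 largest differences in favour of green were in none of the lists. Cdca2, which brings a phosphatase to chromosomes, was at 0 in all 3 blue cells and all 8 other mMSCs and at 26, 23.1, 21.4, 43.9 and 43.7 FPKM in the green cells. F630043A04Rik, now called Ska3 and part of the kinetochore, was at 0, 0 and 4.8 FPKM in blue and 23.7, 68, 59.4, 17 and 53.2 FPKM in green cells. Haus4, of the augmin complex that seeds spindle microtubules, was at 6.08, 0 and 0 FPKM in blue and 119, 43.8, 52.6, 71 and 22.1 FPKM in green cells. The clusters did not overlap for any of them.

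For others, the blue cells were below the green cells and also below the median of the other mMSCs. Ebf1, a transcription factor of B cells and marrow stroma, was at 3.14, 0 and 0 FPKM in mMSC5, mMSC6 and mMSC16, at 86.9, 51.8, 57.9, 139.6 and 112 FPKM in the green cells, and at 10.4 to 145 FPKM in the other mMSCs. Angptl2, a secreted angiopoietin-like protein, was at 8.16, 2.16 and 0 FPKM in blue, 67.8, 37.9, 74.6, 59.5 and 28.9 FPKM in green and 12.1 to 75.1 FPKM in the other cells. All 3 blue cells were below all 13 remaining mMSCs for both genes. Trip6, a LIM protein of focal adhesions, was at 0 in all 3 blue cells and at 36.9, 8.18, 14.3, 41.6 and 19.7 FPKM in the green cells, with a median of 34.2 FPKM in the others. Pus1, which makes pseudouridine in RNA, was likewise at 0 in blue cells, at 84, 47.5, 56.2, 47.9 and 45.6 FPKM in green cells and at 23.2 FPKM in the median of the others.

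Slc18a2, a vesicular transporter of monoamines, was at 0 in all 3 blue cells and at 49, 30.4, 24.5, 18.3 and 21.2 FPKM in green cells. Srfbp1, a binding protein of SRF, was at 0, 0 and 22.1 FPKM in blue and 113, 53.1, 115, 46.7 and 29.4 FPKM in green cells. Rpl34, a ribosomal protein, gave the largest difference of the genes called higher in green, -6.39, but is uncertain, because the same data list Rpl34-ps1, a pseudogene copy that can share its fragments. Rpl34 was at 0.0718, 38.3 and 0 FPKM in mMSC5, mMSC6 and mMSC16, where Rpl34-ps1 was at 926, 419 and 1792 FPKM. The sum of both was 458 to 1792 FPKM in blue and 626 to 1201 FPKM in green cells and overlapped. Whether the split of fragments between the copies made the difference was not tested.

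The lists held few of the genes called higher in blue. Of 36 lists, 2 held such a gene, with 1 gene each. These were Btg2, 1 of 16 measured CDK inhibitors and p53 targets (6.25%), and Fbn1, 1 of 28 matrix genes (3.57%). Of all genes measured, 0.682% were called higher in blue, and 1 gene in a list is too few to set against that share. The 74 genes had a median of mean log2 FPKM of 3.73 in blue, 0.66 in green and 1.85 in the other mMSCs. In 15 of the 74 genes all 5 green cells were at 0, and in 34 all 3 blue cells were at 10 FPKM or more. For 53 of the 74 genes the mean of the other mMSCs was nearer the green mean than the blue one, and for 84 of the 108 genes called higher in green it was nearer the blue mean.

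Mt2, a metallothionein that binds zinc and copper, was at 111, 232 and 214 FPKM in mMSC5, mMSC6 and mMSC16, at 45.3 FPKM in mMSC4, and at 0 in the other 4 green cells. The other mMSCs ranged from 0 to 550.4 FPKM. Igfbp7, a secreted protein that binds insulin-like growth factors and matrix, was at 52, 131 and 95.8 FPKM in blue and 0, 24.9, 0, 27.8 and 11.9 FPKM in green cells. Itih2, which links hyaluronan to proteins, was at 32.9, 120.3 and 30.7 FPKM in blue and 3.55, 12.4, 3.32, 6.82 and 0 FPKM in green cells. For both, the median of the other mMSCs (52.7 and 36.6 FPKM) was above every green cell.

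Several regulators were in the same group. Twist2, a transcription factor of mesenchyme, was at 13.1, 19.3 and 24.4 FPKM in blue cells, at 10.9 FPKM in mMSC8 and at 0 in the other 4 green cells. That green cell came close to the lowest blue cell. Mustn1, a gene of muscle and cartilage repair, was at 5.59, 14.5 and 18.3 FPKM in blue and at 0 in all 5 green cells. Rgs4, which shortens G protein signals, was at 28.2, 9.29 and 12 FPKM in blue cells and at no more than 2.3 FPKM in a green cell. Rps6ka3, the growth factor kinase Rsk2, was at 59.5, 8.94 and 11 FPKM in blue and 0, 0, 0, 5.01 and 0 FPKM in green cells, and mMSC5 was far above the other blue cells.

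Exoc5, a subunit of the exocyst that tethers secretory vesicles, was at 33.3, 44 and 29 FPKM in blue and 2.37, 10.5, 1.07, 0.467 and 0 FPKM in green cells, with mMSC4 the nearest green cell. Nudt16l1, which binds the repair protein 53BP1, was at 45, 84.1 and 47.1 FPKM in blue and 0, 0, 19.3, 0 and 30.6 FPKM in green cells, and here mMSC14 came nearest. Ttc39c was at 35.8, 12 and 16.1 FPKM in blue cells and above 0 in a single green cell, mMSC8 (11.4 FPKM). Bhlhb9 was at 53.1, 26.6 and 10.3 FPKM in blue cells and above 0 only in mMSC4 (2.63 FPKM) among green ones.

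The largest difference of the genes called higher in blue was that of 2010003O02Rik, now called Smim27, at 114, 218 and 80.6 FPKM in blue cells and 0 in all 5 green cells. It lies beside Topors on the opposite strand, and the library kit marks no strand, so reads of the neighbours cannot be told apart where they overlap. Only 1 of the 8 other mMSCs was above 0 for it, mMSC10 at 295 FPKM. The small gene 1110065P20Rik was at 21.4, 27.7 and 21.9 FPKM in blue cells and also 0 in all 5 green cells.

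**Figure D3:**
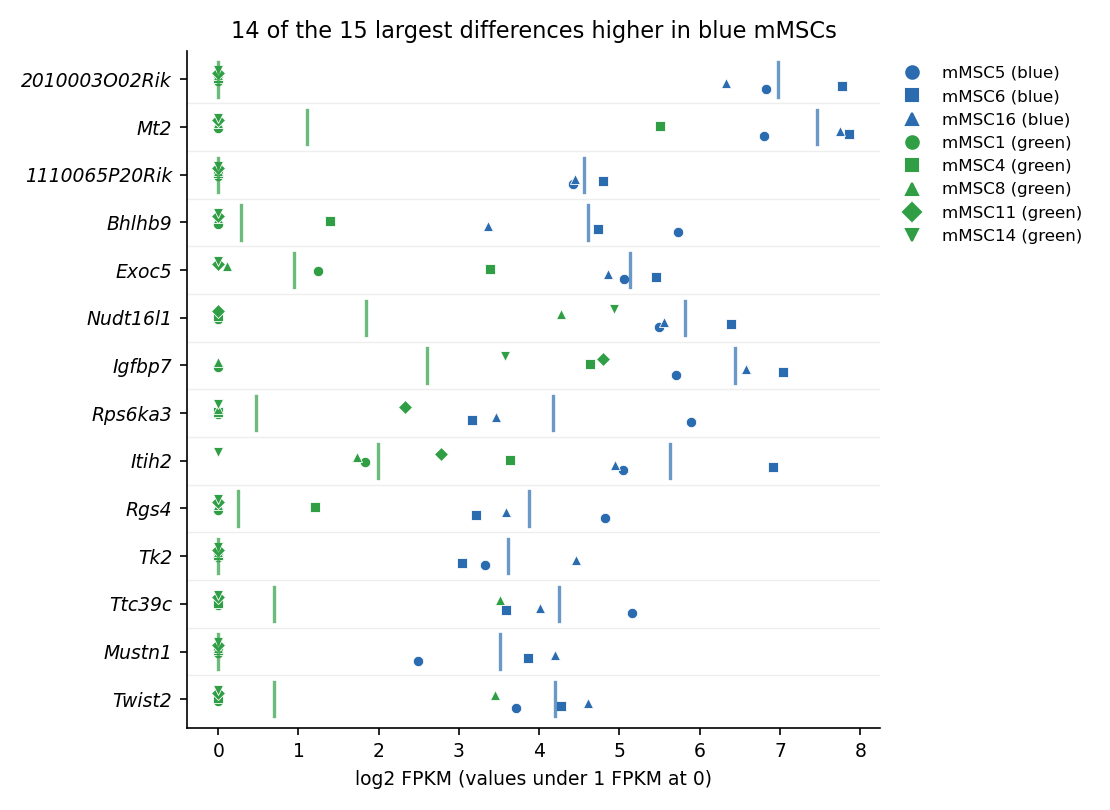
Log2 FPKM (x axis, values under 1 FPKM at 0) of 14 of the 15 genes with the largest called difference in favour of blue, 1 point per cell, with blue and green vertical bars at the cluster means. All blue points lie to the right of all green points by the rule of choice, and the gap is narrow for Ttc39c and Twist2, where 1 green cell comes near.

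Collagen genes leaned to blue without a single call. All 16 measured collagens had the higher mean in blue, where 45.9% of all genes did, and the median difference was 0.67. With values under 10 FPKM set to 10 the median was 0.14, and without mMSC1 and mMSC8 it was 0.40. The mean over the list was 3.2, 3.71 and 4.18 log2 FPKM in mMSC5, mMSC6 and mMSC16, against 2.40, 2.17, 2.89, 3.40 and 3.70 in the green cells. The clusters overlapped, since mMSC11 and mMSC14 lay above mMSC5, and mMSC1 and mMSC4 were the lowest. The other mMSCs ranged over 2.66 to 4.16.

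Col1a1, the main chain of fibrillar collagen I, was at 89, 185 and 354 FPKM in blue and 48.1, 30.8, 99.5, 106 and 185 FPKM in green cells. Col6a1, of the beaded collagen VI, had the largest difference of the list (2.02), at 15.3, 17.4 and 80.4 FPKM in blue and 46.3, 0, 12.2, 4.44 and 6 FPKM in green cells. Col6a2, its partner chain, was at 3.19, 9.88 and 28.9 FPKM in blue and 4.73, 0, 4.52, 16.8 and 0 FPKM in green cells. In each of these mMSC16 was the highest cell, no cell was lower than mMSC4, and the clusters overlapped. Col12a1, a collagen at the surface of fibrils, was at 1.34, 14.4 and 12.1 FPKM in blue and 0.61, 0.276, 1.7, 3.24 and 12.5 FPKM in green cells. No blue cell was below the lowest green cell for any of the 16 genes, where a blue cell was for 8.02% to 9.44% of all genes. It could not be otherwise for a gene at 0 in a green cell, and mMSC4 was at 0 for 8 of the 16.

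**Figure D4:**
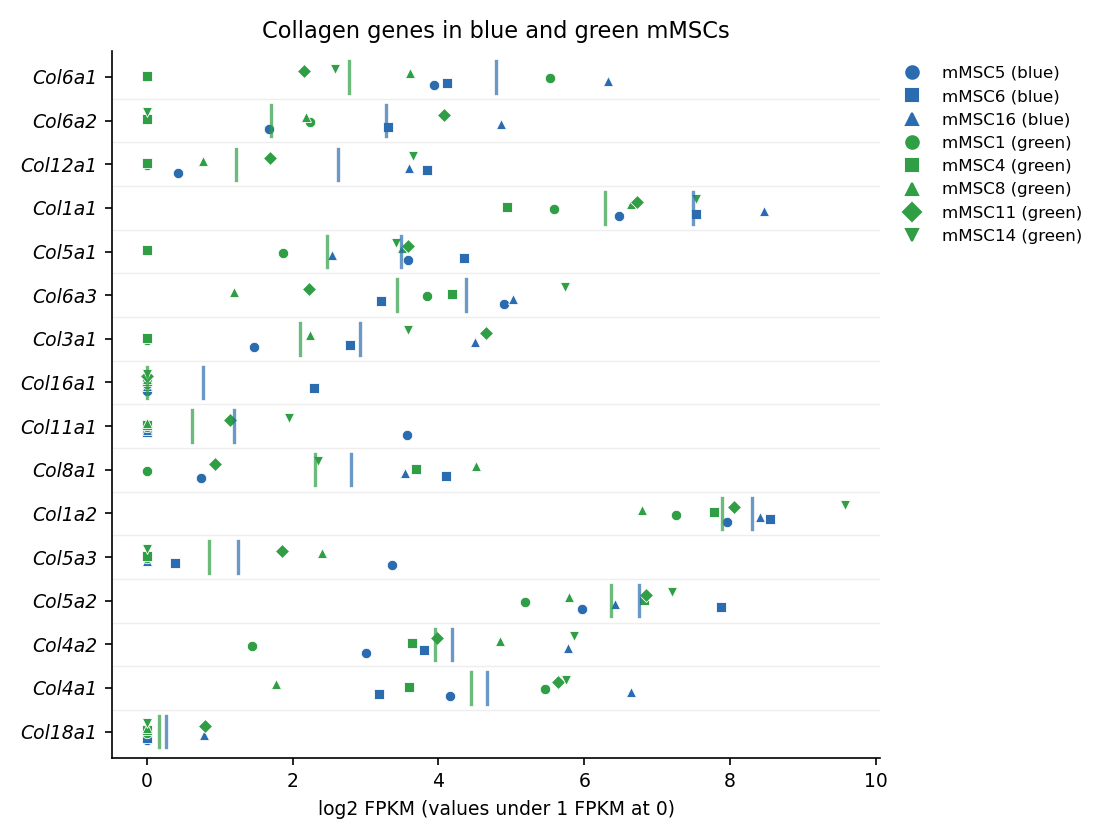
Log2 FPKM (x axis, values under 1 FPKM at 0) of the 16 measured collagen genes, 1 point per cell, with blue and green vertical bars at the cluster means. The blue bar is to the right of the green bar in all 16 genes, while points of the clusters overlap in each.

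Of 28 other matrix genes, 19 had the higher mean in blue, where 45.9% of all genes did, and 1 was called. The median was 0.48, or 0.27 without mMSC1. Fbn1, the fibrillin of elastic microfibrils, was at 14.1, 17.3 and 18.1 FPKM in blue and 8.47, 0.395, 2.36, 0.429 and 9.37 FPKM in green cells, with mMSC14 the nearest green cell. Spp1, the secreted phosphoprotein osteopontin, was at 7348, 7327 and 7857 FPKM in blue and 2688, 2342, 1461, 1555 and 3274 FPKM in green cells. Its clusters did not overlap, and its difference of 1.80 was just under the limit for a call. The other mMSCs ran from 578 to 11947 FPKM, wider than either cluster. Postn, periostin, was at 66, 219 and 278 FPKM in blue and 11.3, 1.24, 218, 227 and 105 FPKM in green cells and overlapped.

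Chemokines and cytokines had a median of 0.59 over 21 genes and 0 calls. The median was 0.21 without mMSC4, 0.97 without mMSC16 and 0.03 with values under 10 FPKM set to 10. Ccl7, which attracts monocytes, was at 1271, 9381 and 1502 FPKM in blue and 499, 1119, 559, 1187 and 488 FPKM in green cells, apart but with mMSC5 close to mMSC11. Ccl2, a chemokine of the same kind, was at 586, 10038 and 726 FPKM in blue and 553, 393, 1001, 911 and 463 FPKM in green cells, where mMSC6 was far above the rest and the remaining cells overlapped. Ccl5 was at 1795, 8464 and 5837 FPKM in blue and 4316, 321, 0, 13625 and 4839.8 FPKM in green cells, and the highest of the 8 was a green cell, mMSC11. For Il6 the values were 145, 163 and 0 FPKM in blue and 0, 7.83, 0, 204 and 0 FPKM in green cells, with 1 blue cell and 3 green cells at 0.

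Contractile genes did not separate the clusters. The 25 measured genes of smooth muscle contraction had a median of 0.10 and 0 calls, and the list mean was 4.85 to 6.10 in blue and 4.66 to 5.84 in green cells. Acta2, smooth muscle actin, was at 316, 297 and 1356 FPKM in blue and 420.4, 33.5, 968, 539 and 2222 FPKM in green cells. Tagln, the actin-binding transgelin, was at 62.8, 8.85 and 511 FPKM in blue cells and at 0 in 4 of the 5 green cells, while mMSC14 was at 249 FPKM. Since mMSC14 was above mMSC5 and mMSC6, the largest difference of the list (4.45) was not a call, and all 8 other mMSCs were above 0 (3.45 to 286 FPKM). Myl9, the regulatory light chain of myosin, had a difference of -2.34, at 0, 30.1 and 1069 FPKM in blue and 64.3, 31.6, 209, 373 and 688 FPKM in green cells, so that blue cells were both the lowest and the highest of the 8.

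YAP and SRF targets, which share Tagln and Myl9 with the contractile list, had a median of 0.00 over 15 genes and 0 calls. Cyr61 was at 10.1, 140.0 and 188 FPKM in blue and 255, 35.4, 125, 148 and 38.1 FPKM in green cells. Ctgf was at 27.9, 93.6 and 147 FPKM in blue and 123, 45.4, 138, 91.4 and 51.3 FPKM in green cells. Vcl, the vinculin of focal adhesions, was at 124, 112 and 79.7 FPKM in blue and 67.6, 45.8, 64.4, 89.4 and 203 FPKM in green cells. Each overlapped, and mMSC5 was the lowest of the 8 cells for Cyr61 and Ctgf.

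Surface genes of mesenchymal stem cells had a median of 0.09 over 23 genes and 0 calls. Ly6a, the Sca-1 antigen, was at 834, 3327 and 1672 FPKM in blue and 167, 1607, 561, 538 and 637 FPKM in green cells and overlapped through mMSC4. Tfrc, the transferrin receptor, was at 10.8, 0 and 16.5 FPKM in blue and 2.34, 3.82, 50.2, 85.5 and 182 FPKM in green cells, with mMSC1 and mMSC4 as low as the blue cells. Medians of the differentiation lists were -0.30 over 10 osteogenic and chondrogenic genes and -0.02 over 13 adipogenic genes, with 0 calls in either. Sox9, the factor of cartilage, was at 227, 212 and 27.6 FPKM in blue and 50.5, 74.4, 20.6, 55.9 and 5.89 FPKM in green cells, where mMSC5 and mMSC6 were high and mMSC16 fell among the green cells.

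The lists of purine synthesis, tubulins and aminoacyl tRNA synthetases had negative medians. Purine synthesis had a median of -0.40 over 16 genes (-0.72 without mMSC5). Its list means in log2 FPKM overlapped, at 4.48 to 4.97 in blue and 4.81 to 5.47 in green cells. All 3 blue cells were above the mean of the other mMSCs, 4.06. The study reported purine metabolism among the gene groups upregulated in its blue cluster. The 1 call higher in green (6.25%, beside 0.996% of all genes) was Impdh2, the enzyme that commits purines to guanine nucleotides. It was at 25.7, 61.5 and 24.1 FPKM in blue and 305, 91.6, 83.4, 187 and 129 FPKM in green cells. Prps1, which makes the ribose precursor, was apart without a call, at 52.5, 27.8 and 21.9 FPKM in blue and 86.1, 122, 77.1, 145 and 103 FPKM in green cells. The 12 measured tubulin genes had a median of -0.65, and Tubb5, the abundant beta tubulin, was at 167, 584 and 991 FPKM in blue and 1718, 1132, 809, 1576 and 1267 FPKM in green cells, with mMSC16 inside the green range. Aminoacyl tRNA synthetases had a median of -0.30 over 20 genes and 0 calls. The mean was higher in green for 12 of the 20, or 60%, near the 51.6% of all genes. Their list means overlapped between the clusters.

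Lists of general functions had small medians. These were 0.04 over 88 genes whose symbols start like respiratory chain subunits, -0.02 over 81 cytoplasmic ribosomal proteins, 0.22 over 31 proteasome subunits, 0.28 over 18 genes of glycolysis and -0.04 over 12 genes of general use in cells. Gapdh was at 233, 157 and 319 FPKM in blue and 227, 191, 206, 224 and 178 FPKM in green cells. Rpl34 was the only gene called in these 5 lists. The mean was higher in blue for 21 of the 31 proteasome subunits and 12 of the 18 glycolysis genes, beside 45.9% of all genes. Leaving out 1 cell at a time gave medians from 0.13 to 0.45 and from 0.10 to 0.46. For both lists the cells of the clusters overlapped in their list means. The remaining lists had medians of 0.34 (class I and interferon response, 22 genes), 0.34 (immediate early, 16), 0.20 (cholesterol, 21), 0.01 (antioxidant defence, 24), -0.07 (growth factors, 22), -0.19 (chaperones and collagen folding, 25), -0.12 (cardiomyocyte markers, 6) and 0.03 (macrophage and leukocyte markers, 3), with 0 calls in any.

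**Figure D5:**
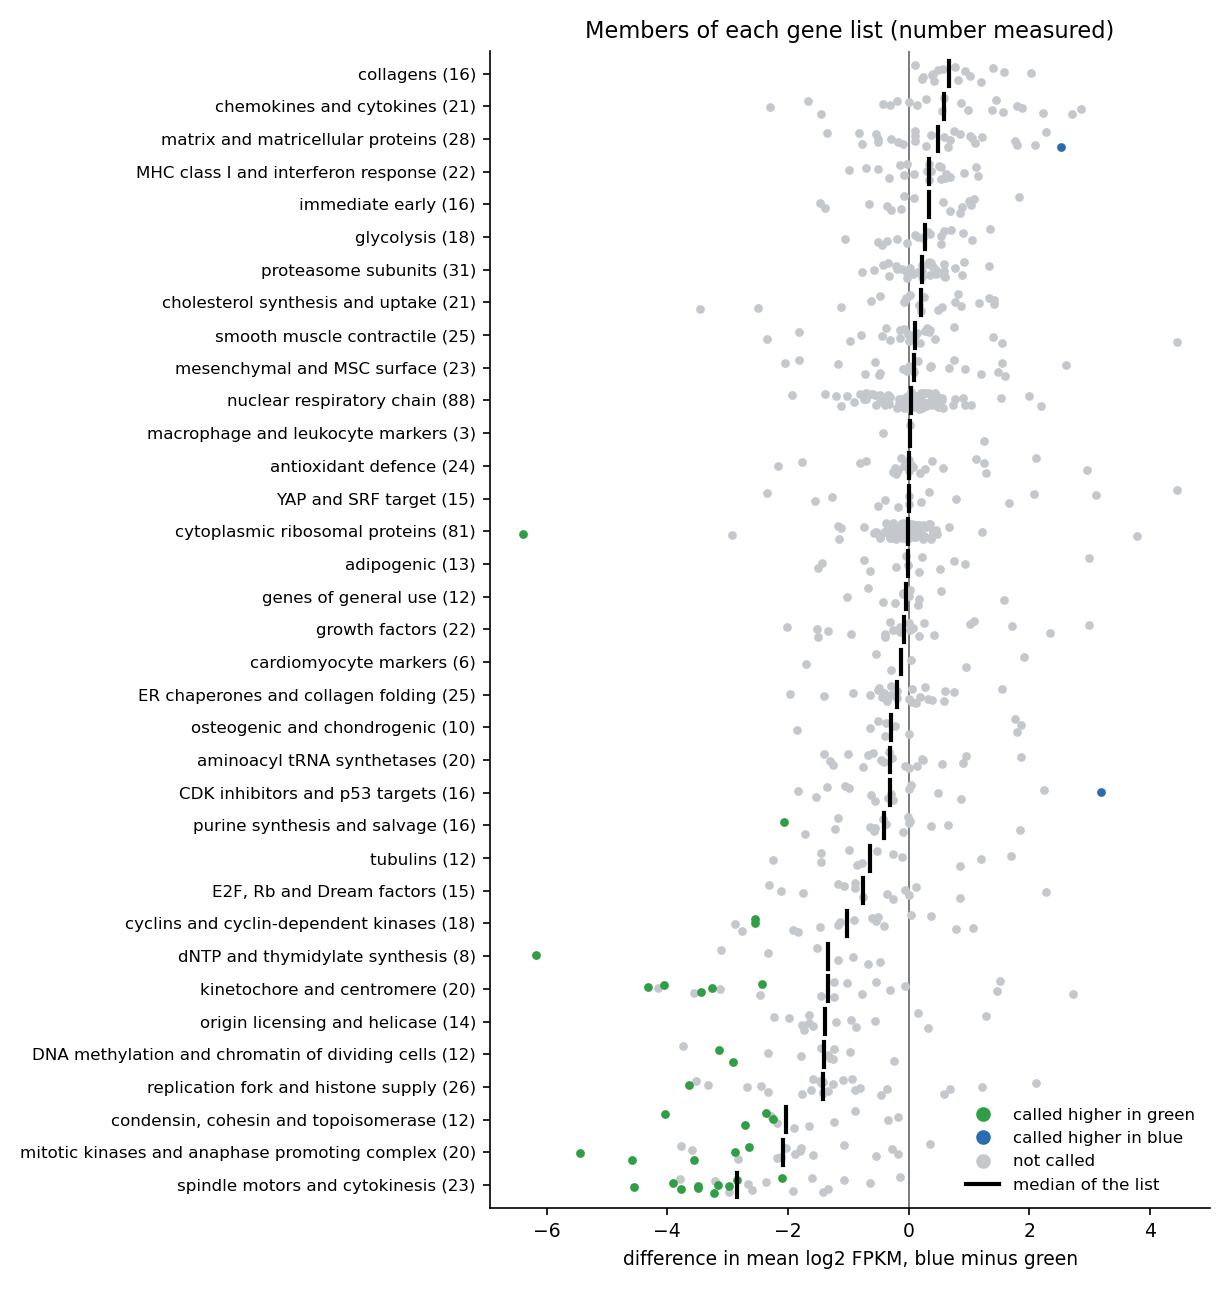
Difference in mean log2 FPKM, blue minus green (x axis), of each measured member of the gene lists, which are ordered by their median (black bar), with called genes in colour. The 9 lists of replication, chromatin, cyclins and mitosis lie at the lower end with medians of -1.02 and below, and the collagens lie at the upper end at 0.67.

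Over all 10844 genes the blue cells were hardly more like each other than like the rest, by Pearson's r across genes of log2 FPKM. The median r was 0.723 over the 3 pairs of blue cells, 0.714 over the 10 pairs of green cells, 0.711 over the 15 pairs of a blue and a green cell, and 0.716 over the 24 pairs of a blue and another mMSC. It was 0.689 over the 40 pairs of a green and another mMSC, and 0.709 over the 28 pairs of other mMSCs. The cell most like each of the 3 blue cells was mMSC7, which is in neither cluster, at r of 0.734 to 0.746. This was not particular to blue cells, since mMSC7 was also the cell most like mMSC2, mMSC3, mMSC9, mMSC10, mMSC12 and mMSC15, at r of 0.683 to 0.756. Genes within a library are not independent replicates, all pairs share the same table, and these values are a description.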

How the data were processed

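RNA of single cells captured on the Fluidigm C1 and of bulk controls was amplified with SMARTer chemistry, made into libraries with Nextera XT and sequenced as paired reads of 75 bases. The deposited values are FPKM, which the authors made with TopHat2 2.0.12 and Cufflinks 2.2.1 on mm10, per the submitters' processing notes. They were not rescaled between libraries. Read counts were not used here, so the precision of single values is unknown.

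From these values, genes whose symbols start with Mir or Snor were left out and log2 was taken with every value under 1 FPKM raised to 1. Cluster membership came from the study, not from the labels. The members and gene lists were chosen with earlier results of these data known, and since the clusters were drawn on the same values, no test was run. Genes were named as the 15 largest called differences in each direction, at most 5 members of each list with the largest differences, and a set always named. 1 gene that this rule names is not reported here. The ribosomal and respiratory chain lists were taken by the first letters of the symbols, with pseudogenes left out. Transcript lengths came from GENCODE M21, current symbols from the synonyms of RefSeq genes, and promoters from RefSeq on GRCm38.p6. Scripts ran on Python 3.11.15 with numpy 2.4.6, pandas 2.3.3 and matplotlib 3.10.9 and were tested on simulated data. Alternatives changed the log scale, limit of detection, filter, scaling, call rule and cells included.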

Additional observations from a re-analysis of the deposited data

Results flagged for a closer look

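Among the 5 green cells, 50 genes (those of the largest called differences and those always named) and 37 lists were examined for a cell whose gap to its nearest neighbour took up more of the whole range than Dixon's 95% critical value of 0.71 allows, which chance exceeds in about 1 group in 20. A single green cell was set apart in 8 genes, and values are in log2 FPKM. In mMSC4 these were Mt2 at 5.50, Bhlhb9 at 1.40 and Rgs4 at 1.20. In mMSC8 they were Ttc39c at 3.51 and Twist2 at 3.45. The remaining ones were Rps6ka3 in mMSC11 at 2.33 and Tagln in mMSC14 at 7.96. In each of these 7 genes the other 4 green cells were at 0 on this scale, so that any value above 0 is set apart by construction and the share of 1 in 20 does not apply. Aurkb was at 6.61 in mMSC11, while the other 4 green cells lay between 3.82 and 4.32.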

How the results depend on the processing

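No paired analysis was possible because no result comes from a test and the cells of the clusters share no numbers. No value changed sign under an alternative among the results called. Genes called higher in blue numbered 74 and those called higher in green 108. With values under 10 FPKM set to 10 these were 6 and 25, and the median difference of the mitosis genes was -0.93 instead of -2.19, that of the collagens 0.14 instead of 0.67 and that of the replication genes -0.79 instead of -1.42. With 1 FPKM required in at least 8 mMSCs, 48 were called higher in blue, and with mMSC-PC counted as a sixth green library 38 were. A limit of 1 on the log2 scale in place of 2 gave 128 and 164, and 386 and 466 genes passed where cells were allowed to overlap. With mMSC1 and mMSC8 left out, an alternative chosen after seeing the data, the counts were 181 and 253.

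Leaving out each cell in turn gave 103 to 230 genes called higher in blue and 151 to 226 called higher in green, since fewer cells overlap less often. There were 219 and 226 genes without mMSC5, 205 and 214 without mMSC6, 230 and 167 without mMSC16, and 109 and 170 without mMSC4. Of the 74 genes 66 to 72 were called again, and of the 108 genes 95 to 106. Leaving out a cell cannot bring the clusters of a called gene to overlap, so only the size limit could undo a call. These numbers are therefore not a check of the calls. Median differences ran from -1.74 to -0.79 for replication genes, from -2.52 to -1.99 for mitosis genes, from 0.45 to 0.90 for collagens and from -0.11 to 0.18 for contractile genes, whose direction is thus not settled. For CDK inhibitors and p53 targets the median was -0.77 without mMSC6, and for kinetochore genes -2.40 without mMSC5. Scaling the libraries to one sum or by median of ratios gave 66 to 81 genes higher in blue and 111 to 113 higher in green. The median of all genes moved to -0.12 with mMSC-PC as a green library.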

Other observations

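Some genes of secreted and surface proteins were above 0 in all 3 blue cells and in few green cells without reaching a call. Ptx3, a soluble pattern recognition protein, was at 46.8, 14.1 and 4.18 FPKM in mMSC5, mMSC6 and mMSC16 and at 0, 0, 0, 11.8 and 0 FPKM in mMSC1, mMSC4, mMSC8, mMSC11 and mMSC14. Angptl4, an inhibitor of lipoprotein lipase, was at 30.8, 39.4 and 14.6 FPKM in blue and 15.5, 0, 0, 0 and 24.8 FPKM in green cells. Cd34, a surface sialomucin, was at 52.8, 1.3 and 6.83 FPKM in blue and 0, 0, 0, 3.37 and 0 FPKM in green cells. For each of them 1 or 2 green cells reached into the blue range and the rest were at 0.

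Other genes were high in most green cells. Mvk, the mevalonate kinase of cholesterol synthesis, was at 0 in all 3 blue cells and at 28.6, 0, 82.7, 66.1 and 0 FPKM in the green cells, so that mMSC4 and mMSC14 were at 0 as well. Hmox1, the inducible heme oxygenase, was at 56.2, 47.7 and 8.28 FPKM in blue and 0, 281, 255, 278 and 408 FPKM in green cells, where mMSC1 alone was at 0 and the remaining green cells were all above the blue ones. Prdx4, a peroxiredoxin of the secretory pathway, was at 118, 251 and 0 FPKM in blue and 59.8, 128, 132, 249.6 and 201 FPKM in green cells and overlapped.

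Ribosomal protein genes other than Rpl34 also had values near 0 in some of the 8 cells and high values in others. Rpl26 was at 591, 357 and 1366 FPKM in blue and 1252, 0.0633, 804, 1.09 and 231 FPKM in green cells. Rps27 was at 0.795, 483 and 2417 FPKM in blue and 1165, 197, 2209, 0.429 and 1484 FPKM in green cells. Processed copies of such genes are common in the mouse genome, and the part of shared fragments in these values was not tested.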
